A study of Mus musculus with 2 samples.

Results

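The genes described are those of the mitochondrial ribosome and of the TIM and TOM protein import machinery, read in injured kidneys of male mice with and without estrogen sulfotransferase (EST). Members were all probe sets whose single gene symbol in the platform annotation begins with Mrpl, Mrps, Timm or Tomm followed by a digit. That rule took 205 of the 45101 probe sets on the array, standing for 99 of 18194 named genes: 47 Mrpl, 29 Mrps, 15 Timm and 8 Tomm genes. It used no measured value.

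The EST KO AKI pool held 124 mg of kidney tissue from 6 male EST KO mice, and the WT AKI pool held 180 mg from 3 male wild-type mice. AKI stands for acute kidney injury, and EST, encoded by Sult1e1, inactivates estrogens by adding sulfate. Mice of the C57BL/6 strain, 8 weeks old, had both kidneys made ischemic for 30 min while warm, and tissue was frozen 24 h after reperfusion. Each pool was read on 1 Affymetrix array, so values of single mice are not known, no difference here has a test, and no value compares injured with uninjured kidney. The allele of the knockout is not given in the labels, and the treatment text of the labels calls the EST KO AKI tissue liver, whereas the other labels call it kidney.

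Mitochondria keep a small genome whose messages, all for subunits of the respiratory chain and ATP synthase, are read by a ribosome of their own. Its RNA comes from that genome, and all of its proteins are made in the cytosol from nuclear genes and imported. Precursors cross the outer membrane through the TOM complex, and are then passed on by the TIM23 complex into the matrix, by the TIM22 complex into the inner membrane, or by small TIM chaperones between the membranes. Proximal tubule cells of the kidney are rich in mitochondria and lose much of their oxidative capacity in ischemic injury.

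The data are intensities on a linear scale, 1 per probe set and pool. Background was the 95th percentile, on each array, of 127 probe sets of gene families mostly silent in kidney, and came to 642.0 in the EST KO AKI pool and 676.5 in the WT AKI pool. Each gene was read from its brightest probe set, called measured if above background in at least 1 pool, and values below background were raised to it before the log2 ratio was taken. A ratio with 1 pool below background is therefore a lower bound, written "at least". Of the 99 genes, 86 were measured, 77 of them in both pools.

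Promoter sequences are shown first, as a feature of the members that the selection by name did not use. RefSeq promoter windows of assembly GRCm38.p6, from 250 bases before to 50 bases after each annotated start, were found for 87 of the 99 genes (95 windows). They were searched on both strands for motifs of 3 factors known to act on nuclear genes for mitochondrial proteins, which are NRF1, the ETS family (GABPA) with CCGGAAGT, and YY1 with AANATGGC. The NRF1 motif has 10 letters, GCGC, then A and any base, then GCGC. It was held by 14.7% of member windows, against 4.6% of all 32851 windows in the table and 9.87% of the 7839 windows of measured genes. The ETS motif was held by 18.9% of member windows, against 3.89% of all windows and 7.88% of those of measured genes. The YY1 motif was held by 24.2% of member windows, against 6.05% of all windows and 8.41% of those of measured genes. At least 1 of the 3 motifs was held by 51.6% of member windows, against 13.4% and 23.4% in the same order. Windows of respiratory chain genes held the NRF1 motif in 22.2%, the ETS motif in 6.94% and the YY1 motif in 20.8% of 72 windows, and any of the 3 in 48.6%. Windows of cytosolic ribosomal proteins held them in 8.16%, 18.4% and 14.3% of 49 windows in the same order, and any of the 3 in 40.8%. The share with any motif was thus 40.8% or more in all 3 groups. A match describes the letters and does not show that a factor binds.

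The matches lay at different places along the promoter. Of 26 YY1 matches in member windows, 18 began after the start, between positions 7 and 37. All 18 read along the gene's own strand. In all windows 32.1% of YY1 matches (675 of 2104) began after the start, and 454 of those 675 read along the gene's strand. Of 17 NRF1 matches 13 (76.5%) and of 19 ETS matches 16 (84.2%) began before it, against 85.1% and 77.8% in all windows, so these shares are near those of all promoters. In member windows 0 matches of one motif overlapped a match of another.

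**Figure D1:**
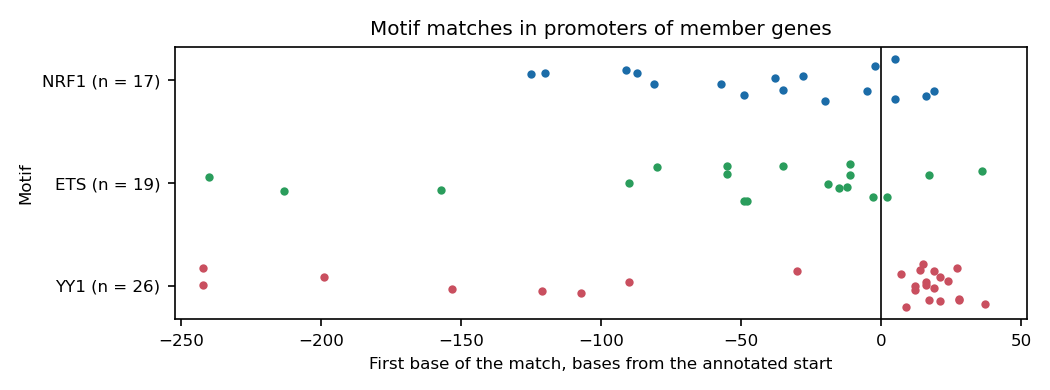
Position of each motif match in the 95 promoter windows of member genes, with distance in bases from the annotated start on the horizontal axis and 1 point per match. The 26 YY1 matches gather just after the start, with 18 of them there, while most NRF1 and ETS matches lie before it.

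For NRF1 and ETS, the 100 bases before the start are printed for the measured members with the highest and the lowest log2 ratios among those with a match there, so that members at both ends of the range can be compared. Capitals mark each match of the motif on either strand. A match on the opposite strand shows the complementary letters in reverse order, such as ACTTCCGG for the ETS motif.
Mrpl12, chr11:120484537-120484636, plus strand: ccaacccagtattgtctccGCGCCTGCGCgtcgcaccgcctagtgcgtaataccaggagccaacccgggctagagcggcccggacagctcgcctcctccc
Tomm20, chr8:126945922-126946021, minus strand: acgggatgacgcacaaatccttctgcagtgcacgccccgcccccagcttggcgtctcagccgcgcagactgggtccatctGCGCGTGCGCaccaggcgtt
Mrpl32, chr13:14613038-14613137, minus strand: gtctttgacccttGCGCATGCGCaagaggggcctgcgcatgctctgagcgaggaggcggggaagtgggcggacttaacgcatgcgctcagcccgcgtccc
Mrpl9, chr3:94443236-94443335, plus strand: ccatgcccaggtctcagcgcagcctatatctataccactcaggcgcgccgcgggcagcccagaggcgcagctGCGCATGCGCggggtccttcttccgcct
Mrps26, chr2:130563657-130563756, plus strand: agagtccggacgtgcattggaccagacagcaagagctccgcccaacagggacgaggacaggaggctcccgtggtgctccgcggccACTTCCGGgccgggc
Mrpl48, chr7:100583131-100583230, minus strand: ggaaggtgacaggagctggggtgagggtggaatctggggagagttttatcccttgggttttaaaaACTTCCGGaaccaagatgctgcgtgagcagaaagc
Mrpl43, chr19:45006443-45006542, minus strand: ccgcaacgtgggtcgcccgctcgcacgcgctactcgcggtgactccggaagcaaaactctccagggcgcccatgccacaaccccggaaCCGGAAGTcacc
Mrpl3, chr9:105053168-105053267, plus strand: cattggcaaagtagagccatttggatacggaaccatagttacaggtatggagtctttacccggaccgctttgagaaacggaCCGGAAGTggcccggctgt
The first 4 hold the NRF1 motif and the last 4 the ETS motif. The NRF1 match began 81 bases before the start in Mrpl12 and 20 in Tomm20, which were higher in the EST KO AKI pool, and 87 in Mrpl32 and 28 in Mrpl9, which were lower there. The ETS match began 15 bases before the start in Mrps26 and 35 in Mrpl48, both higher, and 12 in Mrpl43 and 19 in Mrpl3, both lower. Genes on either side of equal carried the same motif at overlapping distances. The NRF1 match lay on the opposite strand in Mrpl12 and Tomm20. In Mrpl32 and Mrpl9 its letters, GCGCATGCGC, read the same on both strands, so the match has no strand of its own. The ETS match lay on the opposite strand in Mrps26 and Mrpl48 and on the gene's own strand in Mrpl43 and Mrpl3. Elsewhere this was reversed, as Timm29 (log2 ratio −0.24) had an ETS match on the opposite strand and Mrpl27 (0.15) on its own. Whether strand goes with the ratio was not tested. The printed genes were chosen for a match in these bases, so its presence at both ends of the range was set by that choice.

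For YY1, 30 bases after the start are printed around the match, again for the measured members with the highest and the lowest ratios among those with a match there.
Mrpl42, chr10:95501904-95501933, minus strand: cagattgaagcAAGATGGCgagcgcgcggt
Mrps18a, chr17:46111004-46111033, plus strand: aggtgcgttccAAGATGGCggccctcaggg
Timm50, chr7:28312017-28312046, minus strand: ggcgtcagcgcAAGATGGCggcctcggcgg
Mrpl21, chr19:3283058-3283087, plus strand: gggactgtggaAACATGGCtgctgccatag
The match began at position 28 in Mrpl42, 12 in Mrps18a, 12 in Timm50 and 28 in Mrpl21. These genes were chosen for a match after the start, so its presence at both ends of the range was set by that choice. Members with and without a match are set side by side by their median log2 ratio, with no test. The median log2 ratio was 0.03 for 14 measured genes with an NRF1 match against 0.02 for 60 without. It was −0.02 for 14 with an ETS match against 0.04 for 60 without, and −0.09 for 18 with a YY1 match against 0.05 for 56 without. Genes with a match ranged from −1.13 to 0.77, nearly the whole range of the members.

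Mitochondrial ribosome and import genes read nearly alike in both pools as a group, and single members stood apart in both directions. The median log2 ratio of EST KO AKI over WT AKI was 0.05 over the 86 measured members, against −0.05 over all 7460 measured genes. The quartiles of the members' ratios were −0.13 and 0.26, against −0.27 and 0.20 for all measured genes. The members' median intensity was 1442 in the EST KO AKI pool and 1337 in the WT AKI pool. In whole tissue, fewer cells of a type and less RNA per cell cannot be told apart.

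Of the 86 members, 50 (58.1%) were higher in the EST KO AKI pool, where 43.7% of all measured genes were, and 36 (41.9%) were lower, against 54.7%. At 1.5-fold or more, 8 members (9.3%) were higher, against 8.49% of measured genes, and 3 (3.49%) were lower, against 7.36%. At 2-fold or more, 1 member was higher and 1 lower, where 3.03% and 1.41% of measured genes were. The share past 1.5-fold in the upward direction is near that of all genes and is not a result about the members.

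With 1 array per genotype, the spread between probe sets of the same gene is the error at hand. In 1656 genes at least 2 probe sets exceeded background on both arrays, and the log2 ratios of the brightest pair differed with an SD of 0.39, which gives 0.28 for 1 probe set, and 95% of pairs lay within 0.81 of each other. This error leaves out the spread between mice. Ratios of 30 of the 86 members were larger than 0.28 in size, and those of 3, Mrps34, Mrps6 and Mrpl21, were larger than 0.81. As 0.28 is 1 SD of this error, error alone can carry a gene past it, and the count of 30 is not a count of differing members. The SD of the log2 ratios was 0.36 over the measured members and 0.47 over all measured genes. Of 21 members with several probe sets that gave a direction, 12 had all of them on the same side and 9 did not. Of the 11 members past 1.5-fold, 8 rest on 1 measured probe set. In RefSeq, 27 of the 99 genes overlap another protein-coding gene.

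**Figure D2:**
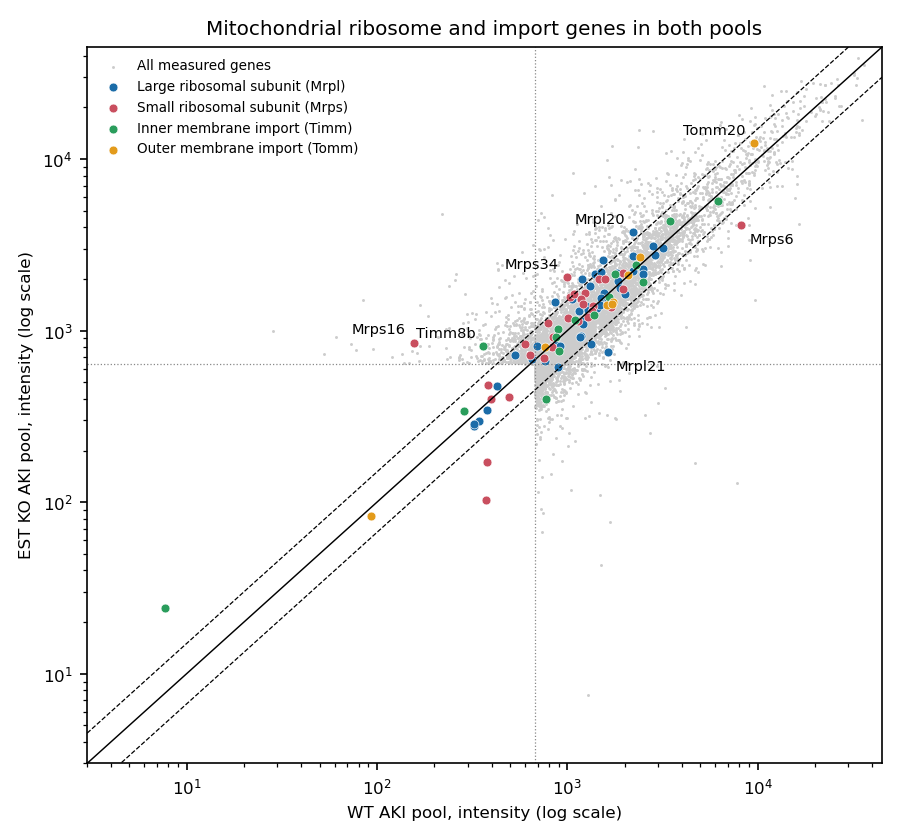
Intensity in the EST KO AKI pool (vertical) against the WT AKI pool (horizontal), both on log scales, for all measured genes in grey and the 99 member genes in colour by group. The solid line marks equal values, the dashed lines 1.5-fold differences and the dotted lines background; most members lie between the dashed lines, with Mrps34 above and Mrps6 and Mrpl21 below them.

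Large subunit genes, named Mrpl, split almost evenly. Of 47 genes 42 were measured, 22 (52.4%) higher and 20 (47.6%) lower in the EST KO AKI pool, against 43.7% and 54.7% of all measured genes. The median log2 ratio was 0.01, and it was −0.063 with no floor at background and −0.012 under quantile normalization. At 1.5-fold or more, 5 (11.9%) were higher and 2 (4.76%) lower, against 8.49% and 7.36% of all measured genes.

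Mrpl12, a protein of the flexible stalk that brings translation factors to the ribosome, read 1462 in the EST KO AKI pool and 858.3 in the WT AKI pool, 1.70-fold higher. Mrpl10, which anchors that stalk, read 2225 in the EST KO AKI pool and 2221 in the WT AKI pool, and Mrpl11, at the stalk base, 826.2 in the EST KO AKI pool and 874 in the WT AKI pool. Mrpl10 thus differed by 1.00-fold and Mrpl11 by 1.06-fold. A second probe set of Mrpl11 read 731.1 against 552.2 (EST KO AKI against WT AKI), above background in the EST KO AKI pool alone and in the opposite direction. Mrpl12 is read by 1 probe set, as is Mrpl10.

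Mrpl20, counterpart of a bacterial protein needed for early assembly of the large subunit, read 3757 in the EST KO AKI pool and 2226 in the WT AKI pool and was 1.69-fold higher. Mrpl42, which has no bacterial counterpart, read 2590.3 in the EST KO AKI pool and 1540.2 in the WT AKI pool, 1.68-fold higher. Mrpl16, near the transfer RNA sites, read 2145 in the EST KO AKI pool and 1402 in the WT AKI pool and was 1.53-fold higher. In each of these only 1 probe set was above background, so no other probe set checks the direction.

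Mrpl15 read 2003 in the EST KO AKI pool and 1193 in the WT AKI pool at its brightest probe set, 1.68-fold higher, but its probe sets disagreed. The second read 1195 against 1551 (EST KO AKI against WT AKI), the third 1048 against 1034 and the fourth 711.1 against 785.2. The mean of these 4 log2 ratios was 0.06, so no direction is settled for Mrpl15. Mrpl52 likewise read 2198 against 1495 at its brightest probe set and 439.2 against 691.6 at the second.

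Proteins at the catalytic centre went both ways. Mrpl3, beside the centre that joins amino acids, read 837.7 in the EST KO AKI pool and 1326 in the WT AKI pool and was 1.58-fold lower, whereas Mrpl2, its neighbour in bacterial ribosomes, read 2711 in the EST KO AKI pool and 2212 in the WT AKI pool, 1.23-fold higher. Mrpl27, whose bacterial counterpart reaches into the same centre, read 3116 in the EST KO AKI pool and 2807 in the WT AKI pool. The other probe sets of Mrpl3 were below background.

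Mrpl4, which lines the tunnel through which the new chain leaves, read 1522 in the EST KO AKI pool and 1059.8 in the WT AKI pool and was 1.44-fold higher. Its partner in the tunnel wall, Mrpl22, read 1134 in the EST KO AKI pool and 1196 in the WT AKI pool. Mrpl23 and Mrpl24, at the rim of the tunnel, had log2 ratios of 0.18 and −0.09. Mrpl45, which holds the ribosome against the inner membrane, read 681.3 in the EST KO AKI pool and 650.5 in the WT AKI pool, where the WT AKI value was below background. Mrpl44, which has the fold of an RNA-cleaving enzyme, read 3029.6 in the EST KO AKI pool and 3168 in the WT AKI pool, with both measured probe sets slightly lower in the EST KO AKI pool.

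Mrpl21 had the lowest ratio of all members. It read 748 in the EST KO AKI pool and 1632 in the WT AKI pool at its brightest probe set, 2.18-fold lower. Its second probe set read 535.5 against 690.9 (EST KO AKI against WT AKI), where the EST KO AKI value was below background, a log2 ratio of −0.11 or lower. The direction was shared by both probe sets and the size was not. In RefSeq the gene overlaps Ighmbp2, which lay below background in both pools.

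Other large subunit genes that stood toward the lower end were Mrpl19 (at least 1.40-fold lower), Mrpl43 (1.27-fold lower) and Mrpl51 (1.23-fold lower). Mrpl43 overlaps Twnk, the mitochondrial DNA helicase gene, which read 828.6 in the EST KO AKI pool and 1197 in the WT AKI pool. Mrpl58, a hydrolase that frees peptides from stalled ribosomes, read 929.4 in the EST KO AKI pool and 1175 in the WT AKI pool at its brightest probe set, and 681.4 against 515 at the second, above background in the EST KO AKI pool alone and in the opposite direction. Mrpl48, of the central protuberance, read 1830.5 in the EST KO AKI pool and 1317 in the WT AKI pool, 1.39-fold higher, with its second probe set on the same side, and Mrpl46, of the same structure, read 1507 in the EST KO AKI pool and 1615 in the WT AKI pool. Mrpl32, which a protease of the inner membrane trims before it joins the ribosome, read 809.5 in the EST KO AKI pool and 915 in the WT AKI pool.

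The remaining measured large subunit genes had smaller ratios or bounds. Those higher in the EST KO AKI pool were Mrpl28 (log2 ratio 0.24, all 3 probe sets higher), Mrpl37 (0.24), Mrpl35 (0.16), Mrpl34 (0.10), Mrpl38 (at least 0.09), Mrpl17 (0.07, probe sets in disagreement), Mrpl14 (0.05), Mrpl1 (at least 0.04) and Mrpl54 (0.03). Those lower were Mrpl9 (log2 ratio −0.21, probe sets in disagreement), Mrpl55 (−0.20), Mrpl36 (−0.16), Mrpl41 (−0.13), Mrpl50 (−0.11), Mrpl39 (−0.09, probe sets in disagreement), Mrpl57 (−0.09) and Mrpl13 (−0.06). Apart from the bounds of Mrpl38 and Mrpl1, whose size is not known, these are smaller than the probe set error of 0.28. Mrpl38 read 720.0 in the EST KO AKI pool and 528.5 in the WT AKI pool, and its log2 ratio was 0.45 with no floor. Mrpl18, Mrpl33, Mrpl40, Mrpl47 and Mrpl49 were below background in both pools.

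Small subunit genes, named Mrps, leaned toward the EST KO AKI pool. Of 29 genes 24 were measured, 17 (70.8%) higher and 7 (29.2%) lower, with a median log2 ratio of 0.19. The shares over all measured genes were 43.7% and 54.7%. Counts go by gene name, so they include Mrps36 and Mrps18a (both higher) and Mrps30 (lower), whose proteins are placed elsewhere, as given below. The 11 measured genes with a mitochondrial number (above 21, where names no longer follow bacterial proteins) had 9 higher and 2 lower and a median of 0.31, and the 13 with a bacterial number had 8 higher and 5 lower and a median of 0.09. The same split of the large subunit, at number 36, ran the other way, with a median of −0.09 for 17 genes with a mitochondrial number and 0.05 for 25 with a bacterial number. No test can be given of either difference.

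Mrps34, a mitochondria-specific protein that keeps the small subunit stable in mice, had the highest ratio of all members. It read 2047 in the EST KO AKI pool and 1001 in the WT AKI pool, 2.04-fold higher. A further probe set that the annotation assigns to Nme3 and Mrps34 together lay below background in both pools and was not used. The ratio of Mrps34 thus rests on 1 probe set.

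Mrps36 and Mrps35 followed. Mrps36, a protein since found in the oxoglutarate dehydrogenase complex of the citric acid cycle, read 1559.5 in the EST KO AKI pool and 1032 in the WT AKI pool and was 1.51-fold higher. Mrps35 read 1636 in the EST KO AKI pool and 1088 in the WT AKI pool and was 1.5-fold higher. Each is read by 1 probe set.

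The next were Mrps26 (1101 against 788.1, EST KO AKI against WT AKI), Mrps14 (1995 against 1471), Mrps18a (1662 against 1241), Mrps7 (1537 against 1185) and Mrps24 (1989 against 1581), between 1.26-fold and 1.40-fold higher. Mrps7 belongs to the head of the small subunit. Mrps18a keeps a small subunit name, but structures of the ribosome place it in the large subunit, and the same holds for Mrps30, which read 1196 in the EST KO AKI pool and 1278 in the WT AKI pool. Mrps18b and Mrps18c, the other genes of the Mrps18 family, had log2 ratios of 0.04 and −0.04, both smaller in size than that of Mrps18a (0.42).

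Mrps16 and Mrps28 were above background only in the EST KO AKI pool. Mrps16 read 848.7 in the EST KO AKI pool and 156.1 in the WT AKI pool, at least 1.25-fold higher, and Mrps28 read 839.6 in the EST KO AKI pool and 597.2 in the WT AKI pool, at least 1.24-fold higher. With background at the 75th percentile of the silent families, the log2 ratio of Mrps16 was at least 1.28. The size given for Mrps16 depends on where background is set.

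Mrps6 was lower in the EST KO AKI pool at both of its probe sets. It read 4115 in the EST KO AKI pool and 8207 in the WT AKI pool at its brightest probe set and 1297 against 2958 at the other, log2 ratios of −0.996 and −1.19. In RefSeq Mrps6 overlaps Slc5a3, the inositol transporter of cells under osmotic load, which read 3353 in the EST KO AKI pool and 8957 in the WT AKI pool (log2 ratio −1.42). Both genes were lower in the EST KO AKI pool, and whether the Mrps6 probe sets also read Slc5a3 transcripts was not tested.

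Of the other small subunit genes lower in the EST KO AKI pool, Mrps12, of the decoding centre, read 1381 in the EST KO AKI pool and 1705 in the WT AKI pool, 1.23-fold lower. The rest were Mrps17 (log2 ratio −0.17), Mrps9 (−0.13) and Mrps23 (−0.05). Mrps33 (0.24), Mrps2 (0.24), Mrps21 (0.13), Mrps31 (0.12) and Mrps5 (at least 0.09) were slightly higher there. Mrps22 read 1138 in the EST KO AKI pool and 1138 in the WT AKI pool, the closest match of any member. Mrps10, Mrps11, Mrps15, Mrps25 and Mrps27 were below background in both pools.

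**Figure D3:**
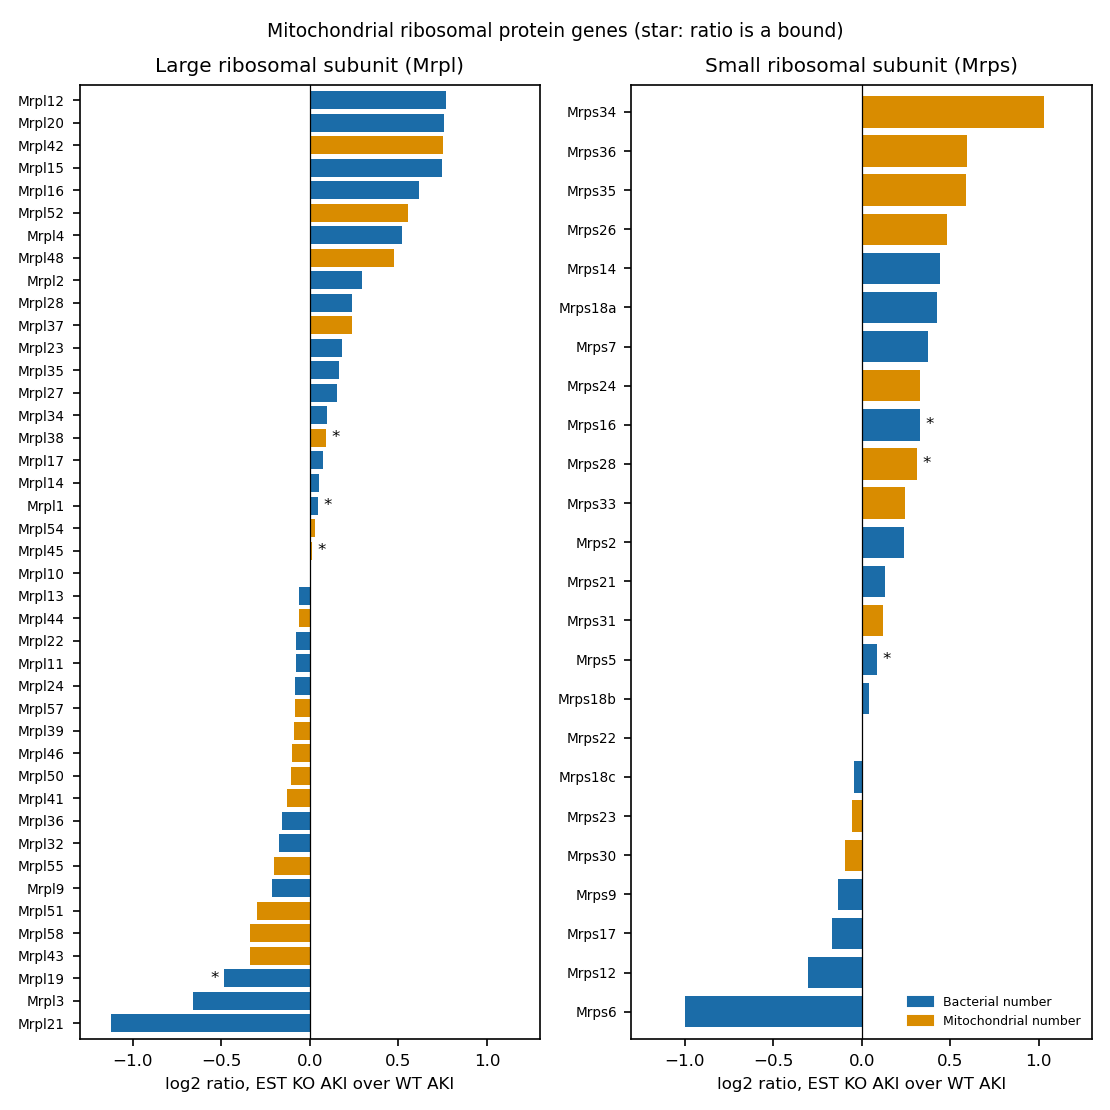
Log2 ratio of intensities, EST KO AKI over WT AKI, for the 42 measured Mrpl genes (left) and 24 measured Mrps genes (right), 1 bar per gene from its brightest probe set. Bars run from −1.13 for Mrpl21 to 1.03 for Mrps34; blue bars carry a number taken from a bacterial protein, orange bars a mitochondrial one, and a star marks a bound.

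Of the 20 measured TIM and TOM import genes, 11 (55%) were higher and 9 (45%) lower in the EST KO AKI pool. The shares over all measured genes were 43.7% and 54.7%. Among the 18 above background in both pools 0 reached 1.5-fold, and the SD of their log2 ratios was 0.22, against 0.40 for the 59 such ribosomal genes, a difference with no test. The other 2 import genes, Timm8b and Timm21, have only bounds, and with no floor their log2 ratios were 1.17 and −0.95. The median was 0.07 for 13 measured TIM genes and 0.01 for 7 measured TOM genes, and under quantile normalization these were −0.024 and −0.065.

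In the TIM23 complex, which imports proteins with a presequence, the channel and its receptor lay on opposite sides of equal. Timm23, the channel protein, read 4371 in the EST KO AKI pool and 3446 in the WT AKI pool, 1.27-fold higher. Timm17a and Timm17b, its paired partners, read 2128 against 1779.6 and 1023 against 893.3 (EST KO AKI against WT AKI), both higher. Timm50, the receptor that hands presequences to the channel, read 1911 in the EST KO AKI pool and 2499 in the WT AKI pool, 1.31-fold lower. Timm21, which links TIM23 to TOM, read 401.5 in the EST KO AKI pool and 773.7 in the WT AKI pool, below background in the EST KO AKI pool and at least 1.21-fold lower. Timm44, which ties the import motor to the channel, read 5722 in the EST KO AKI pool and 6206 in the WT AKI pool. The complex as a whole thus had 3 genes higher and 3 lower.

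The small TIM chaperones, which carry hydrophobic proteins across the space between the membranes, were close to equal in the 3 cases above background in both pools. Timm10 read 2405 in the EST KO AKI pool and 2287 in the WT AKI pool, Timm13 read 1579.5 in the EST KO AKI pool and 1654 in the WT AKI pool and Timm8a1 read 921.6 in the EST KO AKI pool and 876.9 in the WT AKI pool. Timm8b read 813.7 in the EST KO AKI pool and 362.7 in the WT AKI pool, below background in the WT AKI pool, and was at least 1.20-fold higher. Timm9, the partner of Timm10, and Timm8a2 were below background in both pools.

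In the TIM22 complex, which inserts carriers into the inner membrane, Timm22, the channel, read 1148 in the EST KO AKI pool and 1095 in the WT AKI pool. Timm29, a subunit found in animals, read 760.3 in the EST KO AKI pool and 899.1 in the WT AKI pool, 1.18-fold lower. Timm10b, a small TIM bound to the complex, read 1232 in the EST KO AKI pool and 1387 in the WT AKI pool at its brightest probe set and 966.2 against 1491 at the second, with all 3 measured probe sets lower in the EST KO AKI pool. Timm10b and Timm29 lay on the lower side and Timm22 close to equal.

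In the TOM complex, Tomm20, the receptor for presequences, read 12354 in the EST KO AKI pool and 9539 in the WT AKI pool, 1.3-fold higher. Of its 6 probe sets 5 were higher and 1 was lower, with log2 ratios from −0.40 to 0.74. Tomm22, the central receptor, read 1421 in the EST KO AKI pool and 1722 in the WT AKI pool, 1.21-fold lower, with both probe sets lower. Tomm40, the pore, read 1406 in the EST KO AKI pool and 1612 in the WT AKI pool, and its relative Tomm40l 807.4 in the EST KO AKI pool and 763.2 in the WT AKI pool. Tomm7, a small subunit of the pore, read 2688 in the EST KO AKI pool and 2420.0 in the WT AKI pool, with all 3 measured probe sets higher.

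Tomm70a, the receptor for carriers and their cytosolic chaperones, read 1476 in the EST KO AKI pool and 1745 in the WT AKI pool at its brightest probe set and 1014 against 828.8 at the second, in the opposite direction, with another at 691.3 against 746.2. Tomm34, a cytosolic co-chaperone rather than a part of the complex, read 2096 in the EST KO AKI pool and 2087 in the WT AKI pool. Tomm20l was below background in both pools. Probe sets that the annotation gives to several genes, among them Tomm5, Tomm6, Mrpl30 and Mrpl53, were not used.

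**Figure D4:**
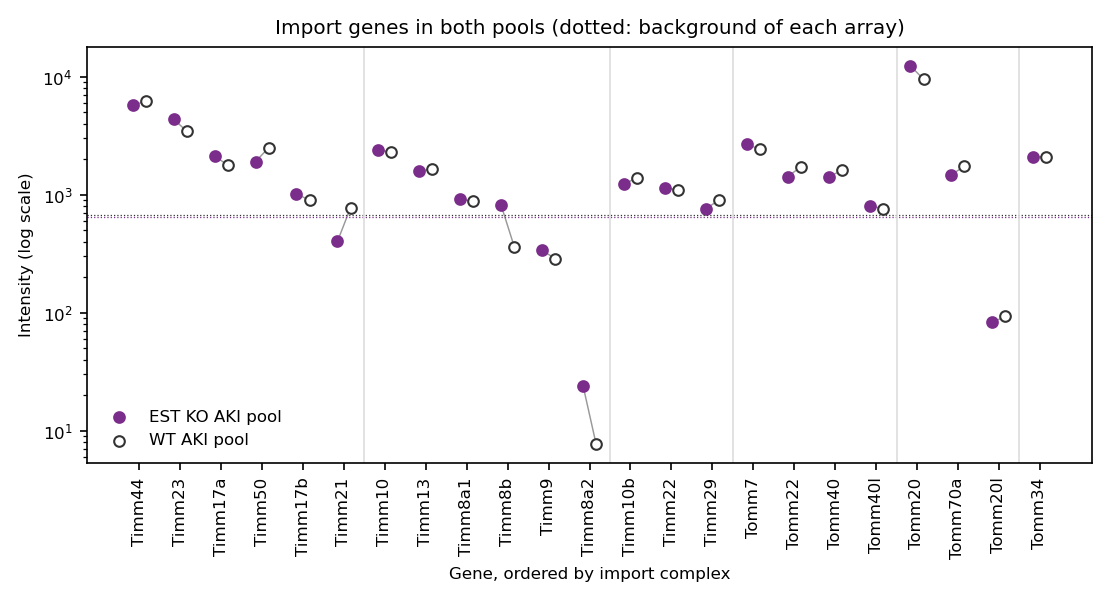
Intensity (log scale) of the 23 TIM and TOM genes in the EST KO AKI pool (filled) and the WT AKI pool (open), ordered by complex, with background dotted. Pairs mostly lie close together, and Timm8b and Timm21 each have 1 value below background.

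Other genes of mitochondrial translation, taken as lists, had medians from 0.05 to 0.12. Translation factors had 4 of 11 genes measured, 2 higher and 2 lower, with a median log2 ratio of 0.12. Tufm, the elongation factor that brings transfer RNA, read 1476 in the EST KO AKI pool and 991.2 in the WT AKI pool, 1.49-fold higher, and Gfm1, the factor that moves the ribosome along, read 1331 in the EST KO AKI pool and 1430.2 in the WT AKI pool. Mitochondrial tRNA synthetases had 6 of 16 measured, 3 each way, with a median of 0.10. Genes of mitochondrial transcription and replication had 6 of 10 measured, 3 each way, with a median of 0.05. Tfb2m, a factor that starts transcription, read 1420.2 in the EST KO AKI pool and 979.9 in the WT AKI pool, 1.45-fold higher, and Tfam, which packs mitochondrial DNA, 1046 in the EST KO AKI pool and 783.7 in the WT AKI pool, 1.33-fold higher. The helicase Twnk, given above, was 1.44-fold lower, and Polg, the DNA polymerase of mitochondria, read 1021 in the EST KO AKI pool and 1350.5 in the WT AKI pool, 1.32-fold lower. Of the small subunit proteins with other names, Dap3 read 977.4 in the EST KO AKI pool and 1015 in the WT AKI pool, Ptcd3 717 in the EST KO AKI pool and 610.3 in the WT AKI pool and Chchd1 1252 in the EST KO AKI pool and 1068 in the WT AKI pool.

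Ribosome assembly genes had 8 of 16 measured, 5 higher and 3 lower, with a median of 0.06. Mrm3, which methylates ribosomal RNA of the large subunit, read 1315 in the EST KO AKI pool and 805.8 in the WT AKI pool, 1.63-fold higher, and Rbfa, which assembles the small subunit, read 862.1 in the EST KO AKI pool and 1553 in the WT AKI pool, 1.80-fold lower. Among regulators of mitochondrial biogenesis 9 of 12 were measured, 6 higher and 3 lower, with a median of 0.03. Gabpa, the ETS factor, read 1056 in the EST KO AKI pool and 774.2 in the WT AKI pool, Nrf1 read 738.5 in the EST KO AKI pool and 790.8 in the WT AKI pool and Yy1 read 1406 in the EST KO AKI pool and 1269.9 in the WT AKI pool. Ppargc1a, the coactivator that drives such genes, read 576.7 in the EST KO AKI pool and 723.1 in the WT AKI pool, below background in the EST KO AKI pool.

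Other import genes had 14 of 19 measured, with a median of 0.16. Of these, 10 (71.4%) were higher and 4 (28.6%) lower, against 43.7% and 54.7% of all measured genes. Pmpcb, the catalytic subunit of the protease that removes presequences, read 3119 in the EST KO AKI pool and 1338 in the WT AKI pool, 2.33-fold higher, while Pmpca, its other subunit, read 1021 in the EST KO AKI pool and 1232 in the WT AKI pool, 1.21-fold lower. Grpel1, the exchange factor of the import motor, read 3049 in the EST KO AKI pool and 1924 in the WT AKI pool, 1.58-fold higher, and Dnajc15, a J-protein at the channel, 2514 in the EST KO AKI pool and 1689 in the WT AKI pool, 1.49-fold higher. Chchd4, which oxidises the small TIM proteins on arrival, read 2519 in the EST KO AKI pool and 3341 in the WT AKI pool, 1.33-fold lower.

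Chaperones and proteases of the matrix and inner membrane had 8 of 12 measured, with a median of 0.50. Of these, 7 (87.5%) were higher and 1 (12.5%) lower, against 43.7% and 54.7% of all measured genes. Hspa9, the chaperone that pulls proteins in as part of the import motor, read 6156 in the EST KO AKI pool and 4047 in the WT AKI pool, 1.52-fold higher. Clpx, an unfoldase, read 2251 in the EST KO AKI pool and 812.9 in the WT AKI pool, 2.77-fold higher, and Trap1, a chaperone, 2734 in the EST KO AKI pool and 1724 in the WT AKI pool, 1.59-fold higher. Hspe1, the lid of the matrix chaperonin, read 4851 in the EST KO AKI pool and 1701 in the WT AKI pool, 2.85-fold higher, the largest ratio of the list. Lonp1, a protease, read 1369 in the EST KO AKI pool and 1722 in the WT AKI pool, 1.26-fold lower, the only measured gene of the list on the lower side.

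Set beside the groups nearest in function, the members lay between them. Nuclear genes for the respiratory chain and ATP synthase had 75 of 83 measured, with a median log2 ratio of 0.38. Of these, 65 (86.7%) were higher and 10 (13.3%) lower, against 43.7% and 54.7% of all measured genes. Past 1.5-fold, 16 of them (21.3%) were higher and 0 lower, against 8.49% and 7.36% of all measured genes. Cytosolic ribosomal proteins had 40 of 47 measured, 9 (22.5%) higher and 31 (77.5%) lower, with a median of −0.08. Slc25 carriers, which the TIM22 complex inserts, had 28 of 44 measured, 18 (64.3%) higher and 10 (35.7%) lower, with a median of 0.35. The difference between these medians has no test here.

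The order of the medians, respiratory chain above mitochondrial ribosome and import, and these above cytosolic ribosome, was the same under each of the 9 other ways of processing. With quantile normalization the 3 medians were 0.21, 0.04 and −0.24. Within the respiratory chain the medians ran from 0.03 for 11 genes of complex IV to 0.60 for 4 of complex II. The 34 genes of complex I had a median of 0.44.

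**Figure D5:**
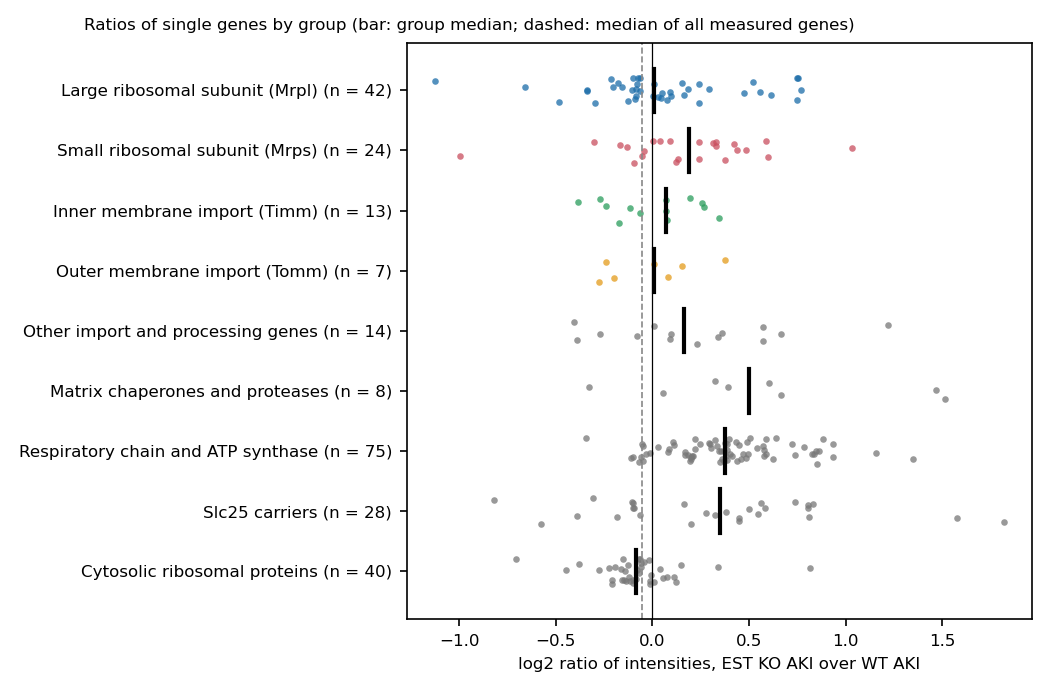
Log2 ratio of EST KO AKI over WT AKI for each measured gene (points) of the 4 member groups (coloured) and 5 lists beside them (grey), with group medians as black bars. Member groups centre between 0.01 and 0.19, between the dashed median of all measured genes at −0.05 and the respiratory chain list at 0.38.

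Cell type markers differed between the pools far more than the members did. Proximal tubule markers were higher in the EST KO AKI pool for 18 of 19 genes, 16 of them by at least 1.5-fold, and their summed intensity was 172633 in the EST KO AKI pool and 77032 in the WT AKI pool. Injured tubule markers summed to 76061 in the EST KO AKI pool and 113652 in the WT AKI pool, with 6 of 9 measured genes lower. Loop, distal tubule and collecting duct markers had 6 of 9 measured genes higher. All 7 measured myeloid and all 7 measured endothelial markers, and 5 of 6 fibroblast markers, were lower. The summed intensity of the 86 members was 149861 in the EST KO AKI pool and 141968 in the WT AKI pool. The part of these cell types in the members' ratios was not tested.

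Of 11 hepatocyte markers 4 were measured. Cps1, a urea cycle enzyme, was above background in both pools (811.7 in the EST KO AKI pool and 730.7 in the WT AKI pool), and Cyp3a11, a drug-metabolising enzyme, in the EST KO AKI pool alone (691.5 in the EST KO AKI pool and 556.2 in the WT AKI pool). Apob, of lipoproteins, and Fgb, of fibrinogen, were above background in the WT AKI pool alone, with Apob at 475.1 in the EST KO AKI pool and 778.6 in the WT AKI pool and Fgb at 7.5 in the EST KO AKI pool and 1284 in the WT AKI pool. Alb, serum albumin, and the other 6 were below background in both pools (Alb at 522.3 in the EST KO AKI pool and 487.9 in the WT AKI pool). Sult1e1 itself was below background in both pools, at 17.2 in the EST KO AKI pool and 472.7 in the WT AKI pool, so it does not check the genotype label. As a measure of RNA quality, the 3' over 5' ratio was 1.28 in the EST KO AKI pool and 1.35 in the WT AKI pool for actin, and 0.84 in the EST KO AKI pool and 0.88 in the WT AKI pool for Gapdh.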

How the data were processed

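RNA of 1 kidney tissue pool per genotype was extracted with Trizol and hybridised as biotinylated cRNA to an Affymetrix array, per the labels' protocols. The authors' deposited values are linear intensity values, 1 per probe set; the software that made them is not given in the sources used here. In both columns the mean without the lowest and highest 2% was 500.0, so they were used as deposited, with array medians of 242.4 (EST KO AKI) and 261.8 (WT AKI). Above background were 24.1% and 24.0% of probe sets. The number of arrays limits the precision.

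GEO's platform annotation gave 34958 probe sets a single symbol, 932 several and 9211 none; 34754 were updated by Entrez ID against RefSeq GRCm38.p6, used for names, neighbours and promoters. Ratios are of the brightest probe set by mean intensity. The steps were tested on simulated data and run with Python 3.11.15, pandas 2.3.3, numpy 2.4.6 and statsmodels 0.14.6.

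The members, the lists set beside them and the promoter motifs were chosen with earlier results of these data known. Every member may be named, and of each list up to 4 genes with the largest ratios were; Nrf1, Yy1, Ppargc1a, Pmpca, Chchd4 and Lonp1 were added for their roles after their values were seen. A planned description of protein features was not made. Alternatives changed background, the handling of dim values, scaling and the choice of probe set.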

Additional observations from a re-analysis of the deposited data

How the results depend on the processing

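Members' median log2 ratio was 0.05, and moved to 0.10 when ratios were centred on the median gene and 0.10 with the trend on level removed (0.0988 and 0.0982). Centring shifts every ratio by 0.05, the size of the median of all genes. The large subunit median changed sign with all values used and no floor (−0.063), and was 0.058 after centring and 0.052 with the trend removed; that of the small subunit was 0.13 with a pseudocount and 0.26 with the trend removed; that of TIM was −0.024 under quantile normalization. The medians of the large subunit, TIM and TOM have no settled sign, since that of TOM was −0.065 under quantile normalization and −0.083 with no floor. Members at least 1.5-fold higher numbered 3 with a pseudocount and 5 without shared probe sets (8 as reported), and members at least 1.5-fold lower 6 with no floor (3). Members at least 2-fold higher numbered 3 with background at the 75th percentile, 4 with no floor, and 0 with a pseudocount or without shared probe sets (1), and members at least 2-fold lower 3 with no floor, 0 with a pseudocount, and 2 under quantile normalization or with the trend removed (1). Without shared probe sets, 60 members were measured and 21 were lower (36). The respiratory chain median was 0.33 with a pseudocount, 0.43 after centring, 0.21 with quantiles equalised and 0.27 when the trend was taken out, and that of cytosolic ribosomal proteins −0.033 after centring, −0.24 with quantiles equalised and −0.21 when the trend was taken out. Of 823 values of single members under these alternatives, 429 equalled the reported value, many because the alternative leaves that gene's value as it is. Of the other 394, 375 moved by less than the probe set error and 19 by more, and 17 (of 11 genes, none 1.5-fold apart) changed sign. Mrpl21 was at −0.11 without shared probe sets, and with a pseudocount Mrps34 was at 0.70, Mrpl12 at 0.48 and Mrpl21 at −0.70. Leaving out Mrps6 and Mrpl15, an alternative chosen after seeing the data, left the members' median at 0.05. Apart from the fewer genes that remain without shared probe sets, the cause of these differences was not tested. No paired analysis was possible because each genotype has 1 array. Dim signal is a further limit, since 13 members lay below background in both pools and 9 in 1.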

Other observations

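Members' names also stand on 7 probe sets that the annotation gives to several genes at once, which entered no count above. The probe set of Tomm5, a small subunit of the TOM pore, read 3037.0 in the EST KO AKI pool and 2414.5 in the WT AKI pool. The 2 of Tomm6, another small subunit of the pore, read 6514.1 and 2550.5 in the EST KO AKI pool and 6406.8 and 2597.4 in the WT AKI pool. The brighter of 2 for Mrpl30, of the large subunit, read 1566.2 in the EST KO AKI pool and 1163.6 in the WT AKI pool, and that of Mrpl53 read 1183.1 in the EST KO AKI pool and 1156.9 in the WT AKI pool. Which of the genes each probe set reads was not tested.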
